A study of Mus musculus with 5 samples.

Results

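To examine whether chromatin of other cell lineages was present in sorted regulatory T (Treg) cells, H3K27ac was read at 9 genes that mark such lineages. They were the B cell genes Cd79a and Pax5, the myeloid genes Spi1, Lyz2 and Csf1r, and the epithelial genes Epcam, Cdh1, Cdx2 and Krt8, out of 21951 protein-coding genes. For each gene, the counts of every peak that overlapped its annotated span, extended by 5 kb on each side, were added up, and this stretch is called the window of the gene. The windows of the 9 genes held 31 of the 124158 peaks of the table.

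The cells came from the large intestine of C57BL/6 mice that were 2 weeks old. Ctrl mice carried Foxp3Cre-YFP, a Cre recombinase and fluorescent protein expressed from the gene of the Treg transcription factor Foxp3, with 1 floxed and 1 normal copy of Setd2, the histone methyltransferase of H3K36me3. KO mice were littermates with the same Foxp3Cre-YFP and both Setd2 copies floxed, so a Cre-bearing allele was shared by both groups and no Cre-free mice were compared. Each group held 2 libraries, each from 60000 cells sorted as CD3+CD4+Foxp3-YFP+ and pooled from 3 to 5 mice. The paper states in general that both sexes were used, and the sex of the mice in each pool is not given. The libraries held 2395002 (Ctrl 1), 3630447 (Ctrl 2), 3007444 (KO 1) and 4712473 (KO 2) counts in peaks. An IgG library has no values in the table and was not analysed here, so the levels below stand beside other genes and not beside an antibody control. Levels are given as CPM, counts scaled to a common total in tested peaks after TMM. Levels of different genes are compared as CPM per kb of window, and single peaks by their percentile among all peaks.

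H3K27ac is the acetylation of lysine 27 of histone H3, found at active promoters and enhancers. A cell type carries it at the genes that define that cell type, while the defining genes of other lineages mostly lack it. Cd79a encodes a signalling chain of the B cell receptor, and Pax5 is the transcription factor that holds B cells to their fate. Spi1 encodes PU.1, a transcription factor of myeloid and B cells that is turned off as thymocytes commit to the T lineage. Lyz2 encodes the lysozyme of macrophages and neutrophils, and Csf1r the receptor for the macrophage growth factor CSF-1. Epcam and Cdh1 encode the epithelial adhesion proteins EpCAM and E-cadherin, Cdx2 the intestinal transcription factor CDX2, and Krt8 a keratin of simple epithelia. CD3, CD4 and Foxp3-YFP were the gate, so cells of these lineages would be present only as carry-over.

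The label of the sorted cells was first compared with their own markers. All 13 T and Treg cell genes held peaks, and their windows lay between 4.72 (Cd3e, a chain of the T cell receptor complex) and 33.3 CPM per kb (Tnfrsf18, which encodes the Treg receptor GITR), with a median of 11.1. The next highest were Cd2 with 30.5 and Cd5 with 18.6 CPM per kb, both surface proteins of T cells. The median over all protein-coding genes was 0.42 CPM per kb, and 27.9% of genes had no peak in their window. The Foxp3 window held 251.5 and 296.1 CPM in Ctrl and 292.1 and 442.1 CPM in KO. Its mean level of 10.1 CPM per kb fell to 4.83 without peaks that overlap another protein-coding gene.

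Against this scale, the median of the 9 other-lineage genes was 0.24 CPM per kb. Of the 9, 8 lay below Cd3e, the lowest T cell gene, as did 91.8% of all protein-coding genes. Without peaks that overlap another protein-coding gene, the lowest T cell gene was Cd3g at 0.353 CPM per kb, and 6 of the 9 lay below it, while Spi1, Cd79a and Cdh1 did not. Of all genes on this basis, between 56.1% (the share below Epcam) and 64.2% (the share below Cdh1) lay below Cd3g. With all peaks, Cd79a, with 16.3 CPM per kb (SD 4.05, n = 4 libraries), was the exception. It was followed by Spi1 with 2.58 (SD 0.45), Csf1r with 0.784 (SD 0.328), Cdh1 with 0.455 (SD 0.124), Epcam with 0.24 (SD 0.0773), Krt8 with 0.0858 (SD 0.0855) and Pax5 with 0.0347 (SD 0.0157). Lyz2 and Cdx2 held no peak at all. In this order the ranges over the 4 libraries overlapped between Csf1r and Cdh1, between Epcam and Krt8 and between Krt8 and Pax5, whereas Cd79a and Spi1 were separated from the next gene in all 4 libraries. The genes thus spread from the 99.6th percentile of all protein-coding genes (Cd79a) over the 81.8th (Spi1), 58.7th (Csf1r), 51.0th (Cdh1), 44.4th (Epcam), 36.4th (Krt8) and 32.0th (Pax5) to no peak. The table lists only regions called as peaks in these same libraries, so a gene with no peak has no count rather than a count of 0. In such pools of cells, few cells of another lineage and little H3K27ac in each of many cells cannot be told apart.

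**Figure D1:**
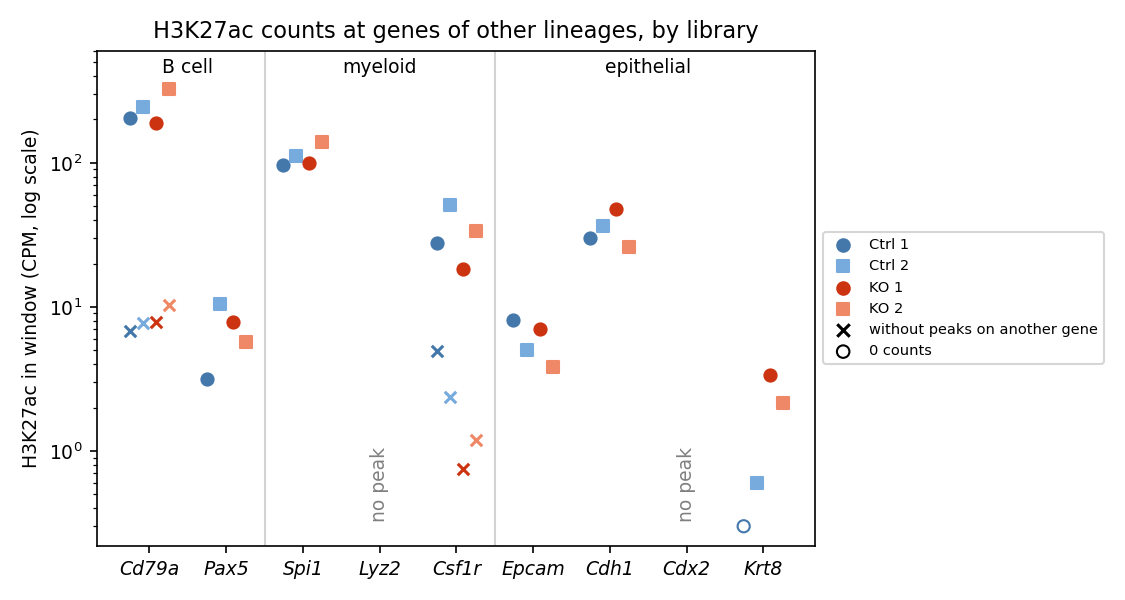
H3K27ac in the windows of the 9 genes, in CPM on a log scale, with 1 filled point per library (circles for replicate 1, squares for replicate 2) and crosses for the same window without peaks that overlap another protein-coding gene. Cd79a falls from between 190.4 and 324.4 CPM to between 6.79 and 10.3 CPM, Csf1r from between 18.3 and 50.6 to between 0.745 and 4.98 CPM, and the open circle is the count of 0 for Krt8 in Ctrl 1.

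The high value of Cd79a came mostly from peaks that it shared with its neighbours. The gene (ENSMUSG00000003379.7) spans 24897381 to 24902197 on the plus strand of chromosome 7 in mm10, and its window held 205.4 and 244.6 CPM in Ctrl and 190.4 and 324.4 CPM in KO. A single peak from 24900650 to 24910470, which overlaps the last part of Cd79a and the start of the next gene, Arhgef1, took between 74.5% and 76.2% of these counts, depending on the library. Arhgef1 encodes an exchange factor for the GTPase RhoA that is made in many blood cells, and several of its annotated transcription start sites (TSSs) lie inside this peak. The peak held 156.1 and 182.1 CPM in Ctrl and 144.6 and 247.3 CPM in KO, which placed it at the 99.8th percentile of all peaks. A further 20.0% to 22.4% of the counts lay in a peak from 24889132 to 24893827, 3.55 kb upstream of the Cd79a TSS. This peak overlaps the end of Rps19, a gene for a ribosomal protein that was named after its values were seen. It also lies within 1 kb of annotated starts of some Rps19 transcripts.

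The peaks of the Cd79a window that overlapped no other gene were small. How the counts of the shared peak divide between the genes cannot be read from the table, and with no extension of the gene span, which keeps that peak, Cd79a stood at the 99.4th percentile. The peak at its promoter, from 24896923 to 24897303, held 2 (Ctrl 1), 3 (Ctrl 2), 1 (KO 1) and 15 counts (KO 2), at the 6.98th percentile of all peaks. The most counted of the 3 peaks that overlap no other gene, an exonic peak from 24899053 to 24899324, held 9 (Ctrl 1), 7 (Ctrl 2), 17 (KO 1) and 13 counts (KO 2). Without the peaks that overlap another gene, the Cd79a window held 6.79 and 7.74 CPM in Ctrl and 7.82 and 10.3 CPM in KO, or 0.551 CPM per kb. This is the 66.8th percentile of genes counted in the same way.

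The promoter windows of Cd79a, Arhgef1 and the T cell gene Cd3e are shown because the peaks over them differed so widely. Each runs 5′ to 3′ along its gene in RefSeq sequence of GRCm38.p6, 300 bases around the annotated start, with CpG dinucleotides in capitals. They lie at chr7:24897247-24897546 (Cd79a, plus strand), chr7:24902736-24903035 (Arhgef1, plus strand) and chr9:45009562-45009861 (Cd3e, minus strand).
Cd79a: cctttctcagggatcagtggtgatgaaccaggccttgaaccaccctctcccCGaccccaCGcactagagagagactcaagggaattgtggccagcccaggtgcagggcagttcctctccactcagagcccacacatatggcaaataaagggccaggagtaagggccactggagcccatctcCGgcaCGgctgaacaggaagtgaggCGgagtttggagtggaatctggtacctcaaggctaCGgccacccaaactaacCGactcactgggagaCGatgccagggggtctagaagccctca
Arhgef1: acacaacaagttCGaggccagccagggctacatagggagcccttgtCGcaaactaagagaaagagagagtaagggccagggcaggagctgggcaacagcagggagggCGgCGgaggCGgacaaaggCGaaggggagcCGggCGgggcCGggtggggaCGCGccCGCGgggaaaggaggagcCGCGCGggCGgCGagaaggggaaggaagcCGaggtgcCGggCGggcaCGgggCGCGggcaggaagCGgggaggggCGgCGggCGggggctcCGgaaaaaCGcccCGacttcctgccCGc
Cd3e: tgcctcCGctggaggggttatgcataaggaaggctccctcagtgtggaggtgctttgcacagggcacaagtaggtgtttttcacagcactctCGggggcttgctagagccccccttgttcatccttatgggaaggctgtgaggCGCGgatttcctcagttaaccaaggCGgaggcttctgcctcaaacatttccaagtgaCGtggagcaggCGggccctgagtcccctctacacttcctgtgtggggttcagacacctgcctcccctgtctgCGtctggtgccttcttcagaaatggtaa

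The Cd79a window held 8 CpG (observed over expected 0.314) under a peak with a mean of 1.44 CPM. The Arhgef1 window held 32 CpG (0.914) under the peak with a mean of 182.5 CPM. Cd3e also held 8 CpG (0.333), but the strongest peak over its window had a mean of 67.0 CPM. Cd79a and Cd3e were therefore alike in CpG content and not in H3K27ac.

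Pax5 was close to empty. The gene (ENSMUSG00000014030.15, chromosome 4, 44524757 to 44710487, minus strand) is the longest of the 9, and its window held 3.17 and 10.4 CPM in Ctrl and 7.82 and 5.75 CPM in KO. Without peaks that overlap another gene, which left Pax5 as it was, it stood at the 40.5th percentile of genes. Its 4 peaks all lay in the gene body, the nearest to a TSS at 30.7 kb and the farthest at 85.8 kb, and none of them reached 10 counts in 2 libraries. The strongest, from 44673030 to 44673356, held 3 (Ctrl 1), 13 (Ctrl 2), 3 (KO 1) and 9 counts (KO 2). The weakest, from 44630198 to 44630486, held 0 (Ctrl 1), 1 (Ctrl 2), 11 (KO 1) and 0 counts (KO 2), so that nearly all of it came from KO 1.

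Spi1 held the most H3K27ac of the 9 genes in peaks that overlap no other gene. Spi1 (ENSMUSG00000002111.8) spans 91082390 to 91115756 on the plus strand of chromosome 2, and no other protein-coding gene overlapped any of its 6 peaks. The window held 96.4 and 111.9 CPM in Ctrl and 99.5 and 139.2 CPM in KO. Without peaks that overlap another gene, which left Spi1 as it was, it stood at the 90.9th percentile of genes.

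Most of the Spi1 signal lay away from the TSS of the basic transcript set. The strongest peak, from 91081821 to 91083869, held 100 (Ctrl 1), 195 (Ctrl 2), 143 (KO 1) and 296 counts (KO 2), or 45.2, 58.0, 53.3 and 70.9 CPM in the same order, which placed it at the 97.7th percentile of all peaks by CPM and at the 99.6th by CPM per kb. It covers the first base of the annotated gene span, 12.2 kb upstream of that TSS, and lies within 1 kb of annotated starts of other protein-coding Spi1 transcripts. The next peak, from 91084292 to 91088210, held 61 (Ctrl 1), 96 (Ctrl 2), 89 (KO 1) and 160 counts (KO 2). By contrast, the peak nearest to the basic TSS, at 1.25 kb from it, held 10 (Ctrl 1), 14 (Ctrl 2), 8 (KO 1) and 27 counts (KO 2). The lowest of the 6, from 91092767 to 91093244, had a mean of 3.32 CPM. The peaks within 3 kb of that TSS thus took 4.12% to 11.7% of the Spi1 counts. An upstream regulatory element is known to drive Spi1 in blood cells, and whether the strong peak is that element was not tested.

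Csf1r resembled Cd79a. The gene (ENSMUSG00000024621.16, chromosome 18, 61100598 to 61132149, plus strand) held 27.6 and 50.6 CPM in Ctrl and 18.3 and 33.8 CPM in KO, but 4 of its 5 peaks overlapped the gene Hmgxb3, whose end lies over that of Csf1r on the opposite strand. These 4 took 82.0% to 96.5% of the counts. The strongest was a peak from 61133751 to 61135543 beyond the end of Csf1r, with 20 (Ctrl 1), 77 (Ctrl 2), 20 (KO 1) and 57 counts (KO 2). The single peak on Csf1r alone, from 61114531 to 61114907 and 8.68 kb from the nearest TSS, held 11 (Ctrl 1), 8 (Ctrl 2), 2 (KO 1) and 5 counts (KO 2). No peak lay within 3 kb of a Csf1r TSS.

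The third myeloid gene, Lyz2 (ENSMUSG00000069516.8, chromosome 10, 117277331 to 117282321, minus strand), had no peak in its 15.0 kb window. In the plot of peaks along the genes, the coloured bars that belong to the genes themselves stand next to the grey bars that overlap a neighbour.

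**Figure D2:**
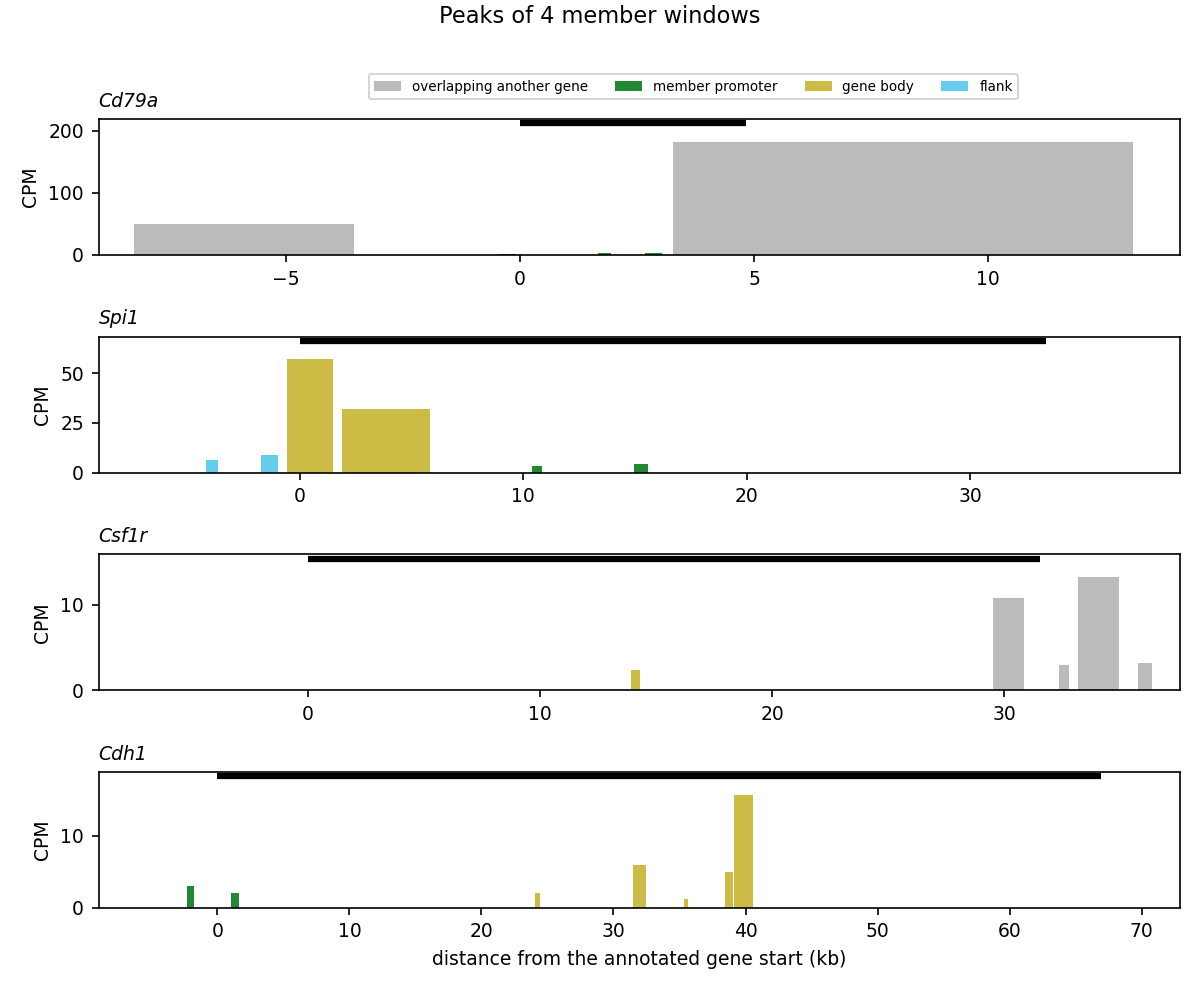
Peaks of the Cd79a, Spi1, Csf1r and Cdh1 windows by distance from the annotated gene start in kb, with the mean CPM of the 4 libraries as height, the width of the peak as width and the gene as a black line. The tall bars of Cd79a (182.5 and 50.5 CPM) and Csf1r (13.3 and 10.8 CPM) are grey, which marks overlap with another gene, while the tallest bars of Spi1 (56.9 CPM) and Cdh1 (15.7 CPM) lie on the genes themselves.

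Of the epithelial genes, Cdh1 (ENSMUSG00000000303.12, chromosome 8, 106603351 to 106670246, plus strand) held the most. Its window had 29.9 and 36.6 CPM in Ctrl and 47.7 and 25.9 CPM in KO, over 7 peaks. The strongest, from 106642473 to 106643898, lay 39.1 kb inside the gene in an intron and held 29 (Ctrl 1), 43 (Ctrl 2), 66 (KO 1) and 52 counts (KO 2), at the 88.0th percentile of all peaks. It overlaps no other gene, and without peaks that do, Cdh1 stood at the 64.2nd percentile of genes. The weakest, from 106638702 to 106638999, held 0 counts in both Ctrl libraries, which allows up to 1.36 and 0.893 CPM (3 counts in each library), and 9 and 6 counts in KO. The 2 peaks within 3 kb of the TSS took 6.25% to 25.2% of the counts. The nearest of them, from 106604395 to 106605006, held 5 (Ctrl 1), 15 (Ctrl 2), 2 (KO 1) and 3 counts (KO 2).

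Epcam and Krt8 held few counts, and Cdx2 had no peak. Epcam (ENSMUSG00000045394.9, chromosome 17, 87635979 to 87651129, plus strand) had 8.14 and 5.06 CPM in Ctrl and 7.08 and 3.83 CPM in KO, in 3 peaks that began between 0.315 and 2.84 kb after the gene start, each at or below the 20.6th percentile of all peaks. Its highest, from 87637082 to 87637370, held 7 (Ctrl 1), 4 (Ctrl 2), 9 (KO 1) and 2 counts (KO 2). Its lowest, from 87638815 to 87639151, held 6 (Ctrl 1), 11 (Ctrl 2), 4 (KO 1) and 2 counts (KO 2). Without peaks that overlap another gene, which left Epcam as it was, it stood at the 56.1st percentile of genes. Krt8 (ENSMUSG00000049382.10, chromosome 15, 101996698 to 102004482, minus strand) had a single peak, from 102006408 to 102006790 and 1.93 kb upstream of its TSS, with 0 (Ctrl 1), 2 (Ctrl 2), 9 (KO 1) and 9 counts (KO 2). The exact Poisson 95% intervals of the Krt8 counts, which cover counting error only, ran from 0.0721 to 2.15 CPM for Ctrl 2, and the count of 0 in Ctrl 1 allows up to 1.36 CPM by the limit of 3 counts. For KO 1 the intervals ran from 1.53 to 6.37 CPM and for KO 2 from 0.986 to 4.09 CPM, so the Ctrl 2 interval overlapped both KO intervals. The limit of 3 counts follows another rule than the exact intervals. By the exact interval, Ctrl 1 ran from 0 to 1.67 CPM, which also overlapped both KO intervals. Cdx2 (ENSMUSG00000029646.3, chromosome 5, 147300805 to 147307270, minus strand) had no peak in its 16.5 kb window.

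The promoters of Lyz2, Epcam and Cdx2, with no peak called over the printed bases, are shown in the same way because they range from CpG-poor to CpG-rich. At Epcam a peak from 87636294 to 87636570 lay 0.112 kb from a TSS, beyond the printed bases. They lie at chr10:117282223-117282522 (minus strand), chr17:87635729-87636028 (plus strand) and chr5:147307200-147307499 (minus strand).
Lyz2: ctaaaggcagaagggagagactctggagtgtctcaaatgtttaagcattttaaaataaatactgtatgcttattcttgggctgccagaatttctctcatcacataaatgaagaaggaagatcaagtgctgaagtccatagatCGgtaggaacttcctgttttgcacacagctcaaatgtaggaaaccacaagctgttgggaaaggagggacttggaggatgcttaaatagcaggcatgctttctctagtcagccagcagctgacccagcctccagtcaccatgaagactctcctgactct
Epcam: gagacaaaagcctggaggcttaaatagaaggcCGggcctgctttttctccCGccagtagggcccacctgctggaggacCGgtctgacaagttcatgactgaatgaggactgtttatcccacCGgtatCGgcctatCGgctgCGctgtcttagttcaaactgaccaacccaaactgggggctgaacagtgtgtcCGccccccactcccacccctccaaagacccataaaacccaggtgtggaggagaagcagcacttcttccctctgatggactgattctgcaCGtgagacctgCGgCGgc
Cdx2: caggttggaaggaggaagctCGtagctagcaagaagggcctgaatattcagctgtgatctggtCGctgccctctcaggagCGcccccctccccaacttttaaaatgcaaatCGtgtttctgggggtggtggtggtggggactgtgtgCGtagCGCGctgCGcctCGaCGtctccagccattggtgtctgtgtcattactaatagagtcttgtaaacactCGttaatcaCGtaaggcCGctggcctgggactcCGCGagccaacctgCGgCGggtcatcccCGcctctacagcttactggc

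Lyz2 held 1 CpG (observed over expected 0.068), Epcam 11 (0.454) and Cdx2 18 (0.731). Promoter sequence was in the RefSeq table for 6 of the 9 genes, and Spi1, Cdh1 and Csf1r have no entry used here. A promoter was called CpG-rich at an observed over expected ratio of at least 0.6 and a GC content of at least 50%. Of 16522 promoters of protein-coding genes matched in this way, 47.4% were CpG-rich. A peak overlapped 73.4% of the CpG-rich ones and 23.7% of the others. Pax5, with 23 CpG, and Cdx2 were the 2 CpG-rich promoters among the 6, and neither had a peak over it. Of the 6, only Cd79a had one, with the 1.44 CPM given above. By comparison, 9 of 9 T and Treg cell genes with a promoter in the table had a peak over it, and 0 of those 9 promoters were CpG-rich.

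Motif letters of 2 lineage factors were searched in the 6 promoters on both strands. The PU.1 letters GAGGAAGT were in 0 of the 6 and in 3.12% of all promoters, and the CDX2 letters TTTATGG in 1, Epcam, and in 2.3%. These are matches of letters in a window and not binding sites.

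The share of counts by place differed between the genes. Over all 9, the peaks that overlap another protein-coding gene took 53.5% to 64.8% of the counts, depending on the library. The peaks within 3 kb of the genes' own TSSs in the basic transcript set took 5.73% to 8.18%. This share leaves out the strongest Spi1 peak, which lies within 1 kb of starts of other Spi1 transcripts and was placed in the gene body. Of the 31 peaks, 6 overlapped another gene and 18 lay below the median CPM of all peaks.

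**Figure D3:**
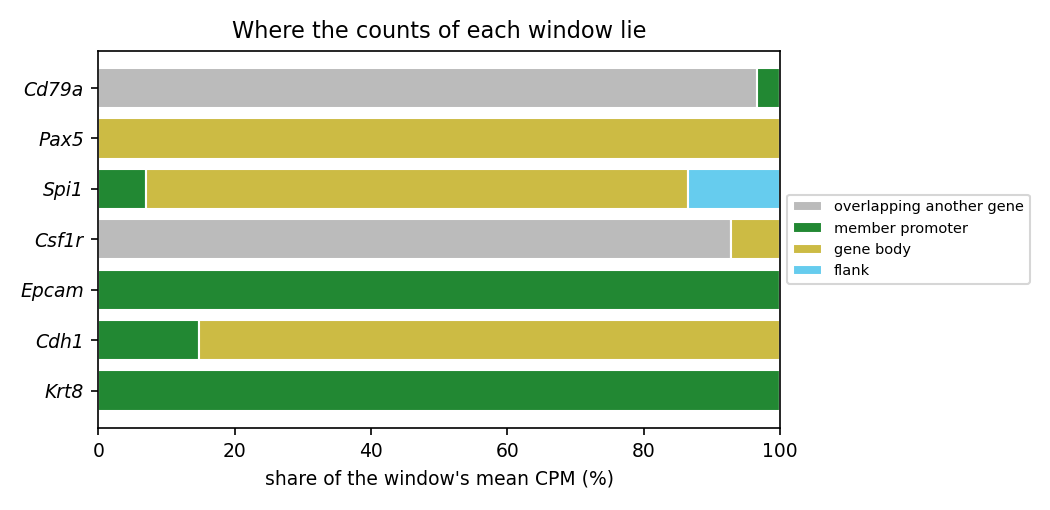
Share of the mean CPM of each window, in percent, by place of the peaks. Places are overlap with another protein-coding gene, within 3 kb of the gene's own TSS in the basic transcript set, gene body and flank. Peaks on another gene hold 96.6% of Cd79a and 92.9% of Csf1r, and gene body peaks 79.5% of Spi1 and 85.3% of Cdh1. The gene body share of Spi1 includes its strongest peak, which lies within 1 kb of starts of other Spi1 transcripts.

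Of 35 further genes of the same lineages, 34 lay below Cd3e, against 91.8% of all protein-coding genes, the exception being Cd68. Without peaks that overlap another gene, 24 of the 35 lay below Cd3g, then the lowest T cell gene, against between 56.1% and 64.2% of all genes. The 12 further B cell genes had a median of 0.667 CPM per kb, with 7 of them above the median of all genes, and 1 of them, Ms4a1, the gene of CD20, had no peak. Their highest were Cd72 (4.49), Fcer2a (1.92) and Cr2 (1.27 CPM per kb), which encode B cell surface receptors, and without peaks that overlap another gene these held 1.86, 0.262 and 0.188 CPM per kb. Of the further myeloid genes, 11 of 12 matched the annotation, with a median of 0.428 CPM per kb and 6 above the median of all genes, and Adgre1 (F4/80) and Sirpa had no peak. Cd68 (8.15), Cd14 (1.23) and Cebpa (0.778) were their highest, and Cd68 fell to 0.659 CPM per kb without peaks that overlap another gene. The 12 further epithelial genes had a median of 0.0447 CPM per kb, with 5 of 12 lacking a peak (Krt18, Krt19, Krt20, Cldn3 and Hnf4a), and Vil1 (0.602), Elf3 (0.555) and Cldn4 (0.228) as the highest.

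Lists of genes outside these lineages were read in the same way. Whether gut cells use any of these genes was not tested. Of the 11 genes of organs outside the gut reported here, 8 had no peak, among them Alb (albumin), and the other 3 were Neurog2 (0.459), Myod1 (0.305) and Myh6 (0.117 CPM per kb). Of 1134 olfactory receptor genes, 962 had no peak, or 84.8%, and the highest reached 4.1 CPM per kb. Of 6 stromal and endothelial genes, Col1a2 and Kdr had none. Pecam1 held 7.67 CPM per kb, Col1a1 0.158 and Cdh5 0.0568. Pecam1 encodes CD31, which is also found on leukocytes.

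**Figure D4:**
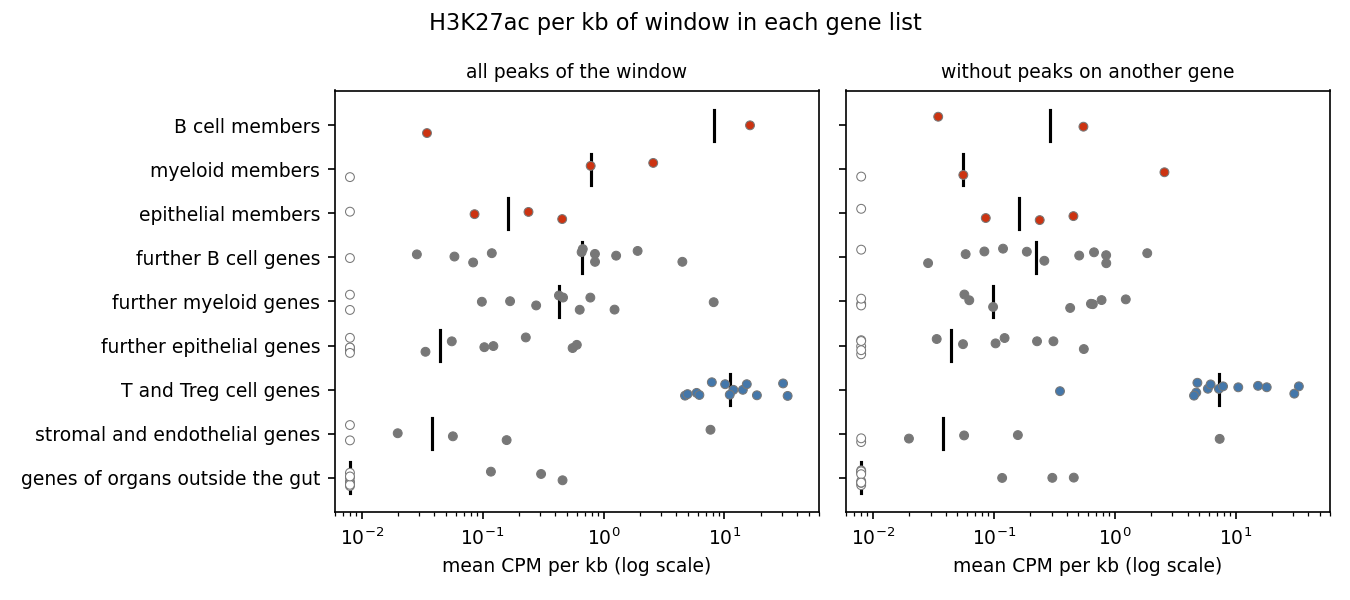
Mean CPM per kb of window over the 4 libraries on a log scale, with 1 point per gene, the list median as a black bar and open points at the left edge for genes without a peak, counting all peaks (left) or only peaks that overlap no other protein-coding gene (right). The 13 T and Treg cell genes have medians of 11.1 and 7.27, and the 9 other-lineage genes, shown in their 3 lineages, have medians of 0.24 and 0.0858 CPM per kb over all 9.

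Without peaks that overlap another gene, the median over all protein-coding genes was 0.137 CPM per kb, and the 9 genes had a median of 0.0858. The same filter took Cd3g, which shares its region with Cd3d, from 11.9 to 0.353 CPM per kb, so it also removed signal from T cell genes. Among peaks on no other gene, the strongest peak of the 9 genes stood at the 97.7th percentile of all peaks in Spi1, the 88.0th in Cdh1, the 56.0th in Cd79a, the 27.7th in Csf1r, the 22.7th in Pax5, the 20.6th in Epcam and the 8.54th in Krt8. On the same basis it stood at the 59.4th percentile in Cd3g and between the 98.3rd (Cd3e) and the 99.99th (Cd2) in the other 12 T and Treg cell genes. A window with more or wider peaks can reach a higher strongest peak, and Krt8 held 1 peak and Ikzf2 60. Summed over the 9 windows on this basis, the libraries held 149.3 (Ctrl 1), 174.7 (Ctrl 2), 174.0 (KO 1) and 188.3 CPM (KO 2).

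KO was then compared with Ctrl, to see whether the 2 genotypes differed in H3K27ac at genes of other lineages. None of the 9 genes was called. With edgeR's quasi-likelihood test over 14259 gene windows, 6 of the 9 genes had enough counts to be tested, and 0 passed a Benjamini-Hochberg adjusted p under 0.05. The percentage of all tested windows called was 0.0, and 0 of the 6 had an unadjusted p under 0.05 against 2.73% of all windows. DESeq2 called 0 of the 9. Of the 6, 3 had a log2 fold change above 0, which 49.4% of all tested windows had. The median log2 fold change was 0.046 over the 6 and -0.0059 over all tested windows.

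Cd79a had a log2 fold change of 0.20 (SE 0.28) in KO over Ctrl, with the KO libraries at both ends of the 4 values. Spi1 had 0.20 (SE 0.26), and here KO 1 lay between the Ctrl libraries. Csf1r had the largest value, -0.58 (SE 0.41, unadjusted p = 0.188 in edgeR), with KO 2 between the Ctrl libraries. For Cdh1 the value was 0.13 (SE 0.36), for Epcam -0.28 (SE 0.80) and for Pax5 -0.038 (SE 0.79). All 6 had an adjusted p of 0.999 in edgeR with Benjamini-Hochberg adjustment, and in none did the libraries of the groups separate, against 29.4% of all tested windows. The sign of the Cd79a and Spi1 values rested on KO 2, without which they were -0.24 and -0.068.

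Replicate spread was as large as these differences. KO 2 was 1.7 times KO 1 at Cd79a, 1.85 times at Csf1r and 1.4 times at Spi1, while KO 1 was 1.84 times KO 2 at Cdh1 and 1.85 times at Epcam. Between group means, KO was 1.14 times Ctrl at Cd79a, 1.15 times at Spi1 and 1.11 times at Cdh1. At Pax5, Ctrl 2 was 3.29 times Ctrl 1. With 2 libraries in each group, an exact permutation test of a single value cannot give a two-sided p below 0.333.

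**Figure D5:**
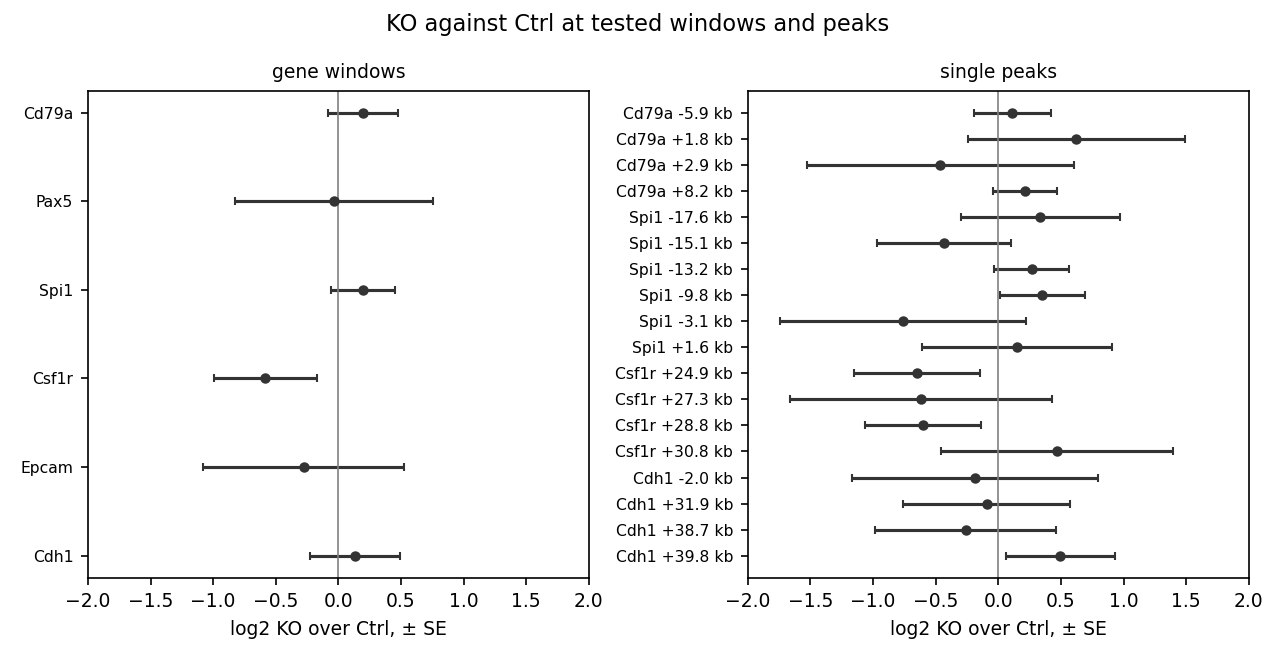
Log2 fold change of KO over Ctrl with its SE for the 6 tested gene windows (left) and the 18 tested peaks (right, named by gene and distance of the peak centre from the TSS in kb). The 6 windows range from -0.58 (Csf1r) to 0.20 (Spi1), and the SE of every window except Csf1r crosses 0.

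Single peaks gave the same result. Of the 31 peaks, 18 had at least 10 counts in 2 libraries and were tested among 74550, and 9 of the 18 had a log2 fold change above 0, as did 49.2% of all tested peaks. None was called in edgeR, where 0.00134% of all tested peaks were, and 0 had an unadjusted p under 0.05, against 4.24% of all tested peaks. DESeq2 also called 0 of them. Their log2 fold changes lay between -0.76, at the Spi1 peak from 91092767, and 0.62, at the exonic Cd79a peak, and all had an adjusted p of 0.998 in edgeR. The libraries of the groups did not overlap at 1 of the 18, the Spi1 peak from 91084292, with 27.6 and 28.6 CPM in Ctrl and 33.2 and 38.3 CPM in KO. Over all tested peaks this was so for 33.3%. Its log2 fold change was 0.35 (SE 0.34). The strongest Spi1 peak had 0.27 (SE 0.30), the Arhgef1 promoter peak 0.21 (SE 0.26) and the strongest Cdh1 peak 0.50 (SE 0.44).

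The 13 peaks with too few counts to be tested included 2 in which the lower KO value exceeded the higher Ctrl value, the Krt8 peak and the weakest Cdh1 peak. They also included 3 with the opposite order, the lowest Epcam peak, the Cdh1 peak nearest to its TSS and the Csf1r peak that overlaps no other gene. The libraries of the groups did not overlap at 33.2% of all peaks with too few counts to be tested. The main fit did not test these 13 peaks. With any count as the minimum, edgeR called 0 of the peaks of the 9 genes and 0 of all 124158 peaks. Whether the groups differ at peaks with so few counts is left undecided.

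Added up by lineage, the 2 B cell windows held 208.6 and 255.0 CPM in Ctrl and 198.2 and 330.2 CPM in KO, a log2 ratio of the group means of 0.19. The 3 myeloid windows held 124.0 and 162.5 CPM in Ctrl and 117.7 and 173.0 CPM in KO, with a log2 ratio of 0.021. The 4 epithelial windows held 38.0 and 42.3 CPM in Ctrl and 58.1 and 31.9 CPM in KO, with a log2 ratio of 0.17. In all 3 lineages the KO libraries were both the highest and the lowest of the 4. KO 2 was the highest for B cell and myeloid genes and KO 1 for epithelial genes. Without peaks that overlap another gene, the B cell sum fell to 9.95 and 18.2 CPM in Ctrl and 15.6 and 16.0 CPM in KO.

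The replicate number, which the labels give without saying what it stands for, ordered several of these genes. Cd79a, Spi1 and Csf1r, or 50% of the 6 tested windows, were higher in both replicate 2 libraries than in both replicate 1 libraries, against 27.5% of all tested windows. Epcam was higher in both replicate 1 libraries, which held for 26.9% of all. Most counts of Cd79a and Csf1r lay in peaks that overlap another gene. Of 10 tested further B cell genes, 6 were higher in both replicate 1 libraries and 2 in both replicate 2 libraries. For 9 tested further myeloid genes these numbers were 4 and 2, and for 6 tested further epithelial genes 0 and 1. Of the 13 T and Treg cell genes, 6 were higher in replicate 2 and 0 in replicate 1. Of 44 tested olfactory receptor genes, 23 were higher in replicate 1 and 2 in replicate 2, and their summed windows held 1139 and 1397 CPM in Ctrl 1 and KO 1 and 893.7 and 917.4 CPM in Ctrl 2 and KO 2. The part of this order in the values of the 9 genes was not tested.

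Among all 14259 tested windows, those whose centred log2 CPM over the 4 libraries was nearest to Cd79a were Evi2 and Evi2b, which share their peaks, at a Euclidean distance of 0.0352, and Alkbh4 at 0.0433. The Cd79a values used here include the peaks that overlap Arhgef1 and Rps19, which held 96.6% of the mean CPM of its window. With only 4 libraries, such likeness is a description of these libraries.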

How the data were processed

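The study profiled H3K27ac by CUT&Tag, in which an antibody brings a transposase to the mark. The authors checked reads with FastQC, aligned them to mm10 with Bowtie2, kept uniquely mapped reads, removed duplicates, used MACS2 with IgG as control to call peaks, and joined the peak sets with bedtools. What they deposited are raw counts of reads in each joined peak, not normalized. Tool versions are not given in the sources used here. Libraries held 2395002 to 4712473 counts, and intervals cover counting error only, with every count taken as independent.

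Peaks were placed on GENCODE M21 basic protein-coding genes (1-based, mm10). A neighbour promoter peak lay within 1 kb of another gene's TSS. Peaks or windows that reached 10 counts in 2 or more libraries were tested with edgeR 4.0.16 (quasi-likelihood, TMM, R 4.3.3) and Benjamini-Hochberg adjustment over 74550 peaks or 14259 windows. The fits had 2 residual degrees of freedom, and the prior degrees of freedom were infinite for peaks and 7.04 for windows. The code was tested on simulated data. DESeq2 1.42.0, size factors, total counts, a loess offset, other count minimums, a replicate block, left-out libraries and other windows were alternatives. One gene of the list of organs outside the gut is not reported here. The 9 genes and all lists were chosen with earlier results of these data known. Named peaks were the highest and lowest of each gene, those at its own or a neighbour's TSS, and any with an unadjusted p under 0.05. The peaks of Spi1 from 91084292 and of Cd79a from 24899053 were named after their values were seen. Of each other list, the 3 highest genes and the lowest were named, with any gene called. For likeness, the 3 genes nearest to the gene with the most counts were named.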

Additional observations from a re-analysis of the deposited data

How the results depend on the processing

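The counts of 0 called genes and 0 called peaks among the 9 genes held under all 14 alternatives, DESeq2 included, and 4 or 5 of the 9 genes lay above the median of all genes under each scaling and window. The log2 ratio of the B cell sum ranged from -0.23 to 0.51 when 1 library was left out, that of the myeloid sum from -0.28 to 0.27 and that of the epithelial sum from -0.33 to 0.53. The negative ends came without KO 2 for the B cell and myeloid sums and without KO 1 for the epithelial sum. With a loess offset the B cell sum was -0.054 and the myeloid sum -0.049, and with total counts as library size the myeloid sum was -0.036. Leaving out 1 library also moved the log2 fold change of Cd79a between -0.24 and 0.53, of Spi1 between -0.068 and 0.42, of Pax5 between -0.62 and 1.08, of Epcam between -0.76 and 0.12, of Cdh1 between -0.36 and 0.52 and of Csf1r between -1.11 and -0.072. Pax5 turned to 0.0011 in DESeq2 and to 0.063 with a replicate block. The cause of these turns was not tested. Lone libraries in such fits were assumed to vary like the other group.

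The labels do not say that a replicate number pairs libraries. Deviations of Ctrl 1 and KO 1 from their group means had a Pearson's r of 0.257 over 74550 peaks. With the replicate number as a block, edgeR called 211 peaks and 1181 windows in all but 0 of the 9 genes and 0 of their peaks, and the adjusted p of Csf1r was 0.134, the lowest among its alternatives. Dropping peaks that overlap another gene, an alternative chosen after seeing the data, moved Cd79a from the 99.6th to the 66.8th percentile and Csf1r from the 58.7th to the 42.8th. At the depth of these libraries, 3 counts correspond to 0.719 to 1.36 CPM, so differences between groups at peaks of a few counts are left undecided.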
